A study of Mus musculus with 8 samples.

Results

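The 9 genes described here encode complement proteins that cells of the colon wall can make themselves: the proteases C1ra, C1s1, C2 and Cfb, the scaffold proteins C4b and C3, and the regulators Serping1, Cd55 and Cfi. They were taken by name, and all 9 were found among the 53465 genes of the deposited table. Colon RNA had been sequenced from 8 mice on day 10 of a chemically induced colitis. In the Arg1 ko group (4 mice), arginase 1, an enzyme that turns arginine into ornithine and urea, was deleted conditionally and cell-specifically. The sources used here do not name the cell type or the Cre driver. In the Arg1 wt group (4 mice), littermates kept the gene. All mice were on the B6 background, matched in sex and age, and aged 7 to 12 weeks. All had drunk 2.5% dextran sulfate sodium (DSS), which injures the colon epithelium, for a week and then plain water. No mice without DSS were among these samples, so nothing below compares inflamed with healthy colon.

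Complement is a cascade of plasma and tissue proteins that tags microbes and damaged cells. The classical route starts with C1, in which C1r activates C1s, and C1s then cuts C4 and C2. The alternative route uses factor B in place of C2, and both routes meet at C3, whose fragments coat targets and recruit leukocytes. Host cells are spared by inhibitors such as C1 inhibitor (Serping1), decay-accelerating factor (Cd55) and factor I (Cfi). The liver makes most plasma complement, while epithelium, fibroblasts and macrophages of the gut also transcribe complement genes.

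Expression is given as rlog (regularised log2 values from the deposited table), here called the level. A difference is always Arg1 ko minus Arg1 wt on that scale. Rlog draws weakly expressed genes toward their own mean, so their differences come out too small, and it keeps no counts, so the depth of each library is unknown. The tissue is labelled colon, while the protocol describes epithelial aggregates freed with EDTA. Epithelial markers were high (Epcam, mean level 15.35), but so were those of smooth muscle (Myh11, 14.83). Of 5 liver markers, Fgb was listed at 0 in all 8 libraries, and Serpina1a (mean -1.38) and Alb (1.72) were under the minimum for testing used below, while Apoa1 (3.96) and Ttr (5.89) were above it. In bulk RNA, fewer cells of a type and less RNA per cell cannot be told apart. The deleted gene itself, Arg1, had levels of 5.06, 4.87, 5.15 and 5.19 in ko 1 to 4, against 5.59, 5.57, 5.02 and 5.58 in wild type 1 to 4. The library labelled wild type 3 thus lay inside the ko range. The difference of -0.37 did not pass (limma adjusted p = 0.522). Leaving that library out gave -0.51 (limma adjusted p = 0.0418), in a range of 0.0418 to 0.819 over the alternatives. Since that library had the lowest Arg1 of the wild type, leaving it out enlarges the difference by construction and is no check of its label. Transcripts of at least 5000 bases stood low against those of at most 1500 bases in wild type 1 (-0.73, the median deviation of long minus that of short transcripts) and wild type 2 (-0.39). In the other 6 libraries this balance ran between 0.04 and 0.33. Y-linked Ddx3y was at 9.97 to 10.31 in ko and at 9.49 to 10.66 in wild type, and Xist at 3.22 to 3.98 except for 6.31 in wild type 1.

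No complement gene of the 9 differed between Arg1 ko and wild type past the threshold. Of the 8 that were expressed highly enough for testing (mean level of at least 3), 0 had a limma adjusted p under 0.05, against 0.0% of all 16380 tested genes, and the smallest adjusted p was 0.522. At an unadjusted p under 0.05 stood 1 of the 8, Cd55, against 9.1% of all tested genes. The differences were small: 2 of the 8 were positive and 6 negative, with a median of -0.03, beside a median of 0.01 over all tested genes. The median size regardless of sign was 0.05 for the 8 and 0.14 for all tested genes. Without the library labelled wild type 3, limma called 1005 genes (6.14% of those tested), still with 0 of the 8 among them.

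**Figure D1:**
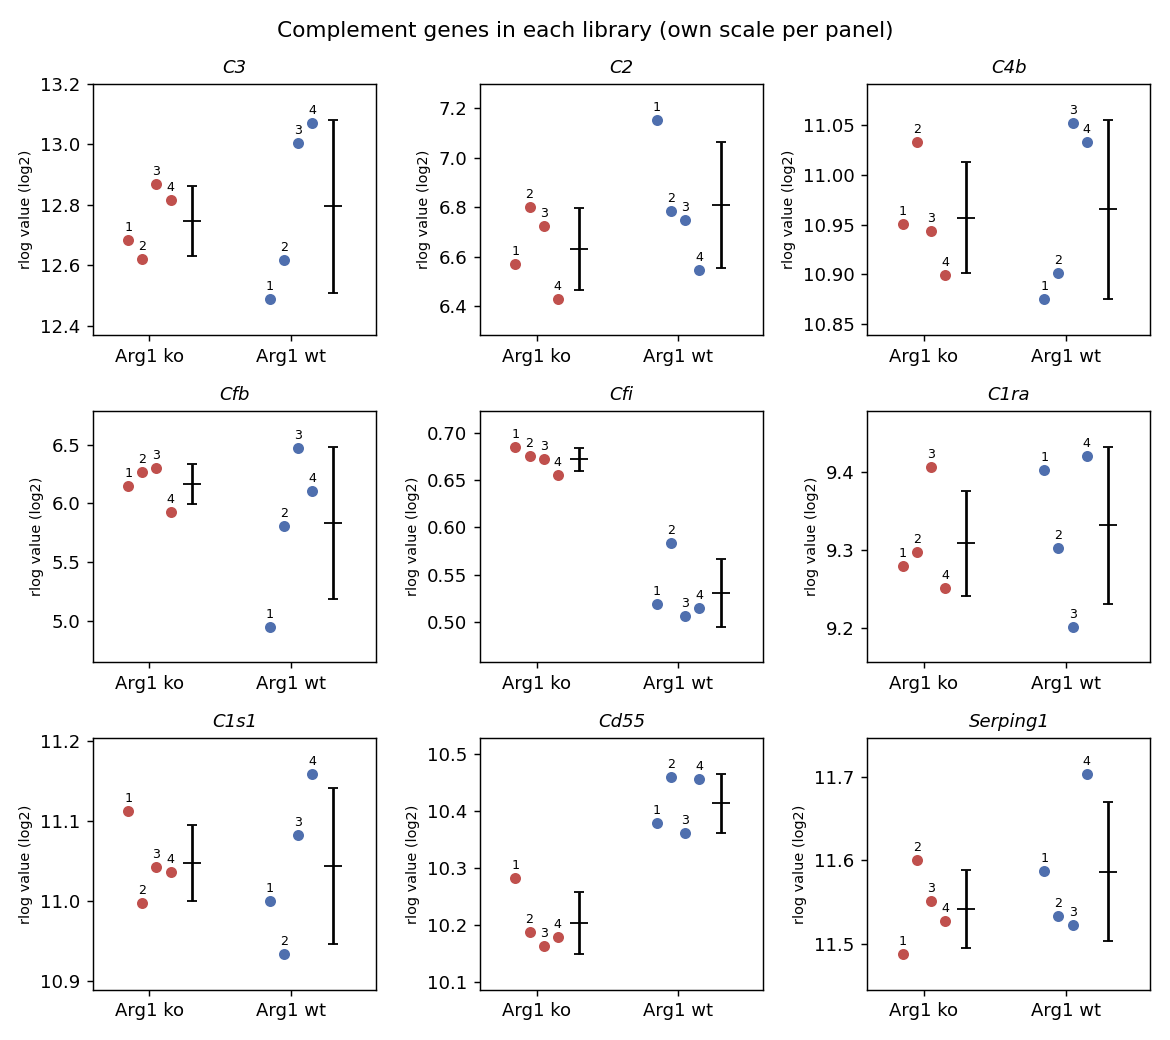
Level (rlog, log2; each panel has its own scale) of the 9 complement genes in the Arg1 ko and Arg1 wt libraries, numbered 1 to 4 within each group; the bar beside the points is the mean ± SD of 4. Cd55 and Cfi are the genes whose groups do not overlap, and Cfi lies near the bottom of the scale throughout.

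The proteases that open the classical route came out alike in both genotypes. C1ra (ENSMUSG00000055172, chromosome 6, 124512405 to 124523443, plus strand, GRCm38), which activates C1s, had 9.28, 9.30, 9.41 and 9.25 in ko 1 to 4, against 9.40, 9.30, 9.20 and 9.42 in wild type 1 to 4. The ranges overlapped fully, and the difference was -0.02 with a standard error of 0.09 (95% interval -0.23 to 0.18, limma adjusted p = 0.922). C1s1 (ENSMUSG00000038521, chromosome 6, 124530345 to 124542359, minus strand), the protease that cuts C4 and C2, had 11.11, 11.00, 11.04 and 11.04 in ko 1 to 4, against 11.00, 10.93, 11.08 and 11.16 in wild type 1 to 4. Its ko values lay inside the wild-type range. The difference was 0.0034 with a standard error of 0.09 (limma adjusted p = 0.987). It turned to -0.03 with library medians aligned and to -0.07 without wild type 1 and 2 together, a choice made after seeing the data.

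The reads of these proteases could be split with near copies. Of the 50-base windows of the C1ra transcript, 48.0% also occur in the paralog C1rb (mean level -1.02), and 24.3% of those of C1s1 occur in C1s2 (mean level 1.48). The sources used here state neither the read length nor how reads that fit more than 1 place were treated.

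C4b (ENSMUSG00000073418, chromosome 17, 34728380 to 34743882, minus strand) encodes C4, the scaffold that C1s cuts and that binds C2. Its level was 10.95, 11.03, 10.94 and 10.90 in ko 1 to 4, against 10.87, 10.90, 11.05 and 11.03 in wild type 1 to 4. The groups overlapped, with a difference of -0.0085 and a standard error of 0.09 (95% interval -0.20 to 0.18, limma adjusted p = 0.969). Its neighbour C4a, the paralog known in mouse as sex-limited protein, is annotated in GENCODE as a processed transcript and had a mean level of only 3.19. Over 5367 aligned bases the C4b and C4a transcripts were 96.1% identical, and 35.2% of the 50-base windows of C4b occur unchanged in C4a. Where they do differ, reads can be assigned. The coding stretch of C4b with most differences, bases 2761 to 2820 of its transcript, is shown over the matching C4a bases 2755 to 2814, with the 13 differing bases in capitals.
C4b: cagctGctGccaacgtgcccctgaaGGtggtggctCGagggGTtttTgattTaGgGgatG
C4a: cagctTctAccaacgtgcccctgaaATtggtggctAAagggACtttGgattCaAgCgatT

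C2 and Cfb are sister genes, side by side on chromosome 17, that encode the proteases of the classical and the alternative convertase. Neither passed the test, and both had their most distant value in wild type 1. C2 (ENSMUSG00000024371, chromosome 17, 34862604 to 34898265, minus strand) had 6.57, 6.80, 6.72 and 6.43 in ko 1 to 4, against 7.15, 6.79, 6.75 and 6.55 in wild type 1 to 4. Wild type 1 stood highest, and the other 3 wild-type values lay within the ko range. The difference was -0.18 with a standard error of 0.15 (95% interval -0.52 to 0.16, limma adjusted p = 0.625). Leaving out wild type 1 gave -0.06, leaving out ko 4 gave -0.11, and leaving out wild type 1 and 2 together, a choice made after seeing the data, gave -0.02.

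Cfb (ENSMUSG00000090231, chromosome 17, 34856374 to 34862518, minus strand), factor B, had 6.15, 6.27, 6.30 and 5.93 in ko 1 to 4, against 4.95, 5.81, 6.47 and 6.11 in wild type 1 to 4. Wild type 1 was the lowest of all libraries and the library labelled wild type 3 the highest. This was the widest wild-type spread of the 9 genes, an SD of 0.65 (n = 4) beside 0.17 (n = 4) in ko. The difference of 0.33 had a standard error of 0.28 (95% interval -0.29 to 0.94, limma adjusted p = 0.622). Leaving out wild type 1 gave 0.03, leaving out the library labelled wild type 3 gave 0.54, and leaving out both wild type 1 and 2 gave -0.13. These are the libraries in which long transcripts stood low, which is given as a measured fact; its part in the Cfb and C2 values was not tested.

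The annotation matters for this pair of genes. A readthrough gene, Gm20547, runs through both on the same strand and was listed at 0 in all 8 libraries. It shares 79.5% of the exon bases of Cfb and 42.8% of those of C2. In the longest Cfb transcript the part outside Gm20547 is the first 465 bases and the last 38 of 2751. In that of C2 (2641 bases) the parts outside it include the last 476 bases. Whether reads that fall in 2 genes were counted is not stated, so the levels of Cfb and C2 may rest on only part of their transcripts. The border is shown in the coding sequence of Cfb, bases 421 to 510 of the transcript, with the part shared with Gm20547 in capitals.
Cfb: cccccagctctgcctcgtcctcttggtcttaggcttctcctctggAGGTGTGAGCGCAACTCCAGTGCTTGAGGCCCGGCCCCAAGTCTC

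**Figure D2:**
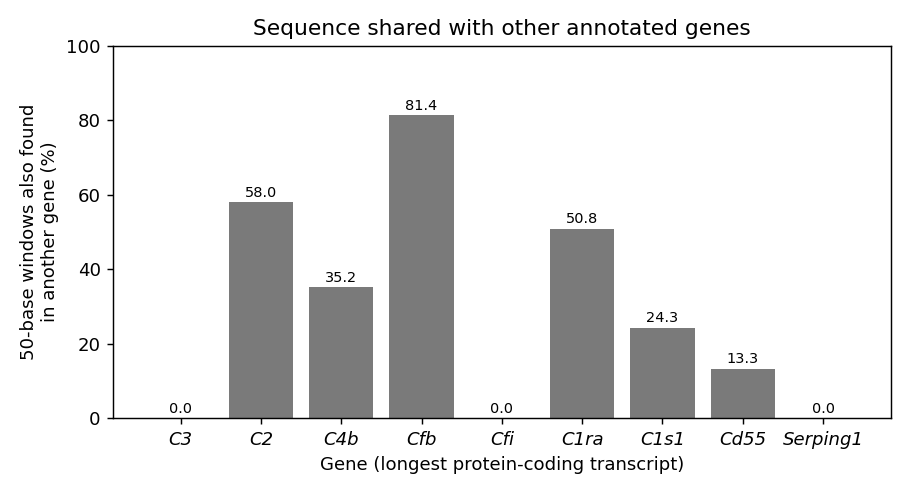
Share of the 50-base windows of each gene's longest protein-coding transcript that also occur in a transcript of another annotated gene (GENCODE vM21). Cfb is highest at 81.4%, followed by C2 at 58.0% and C1ra at 50.8%; C3, Cfi and Serping1 have none.

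**Figure D3:**
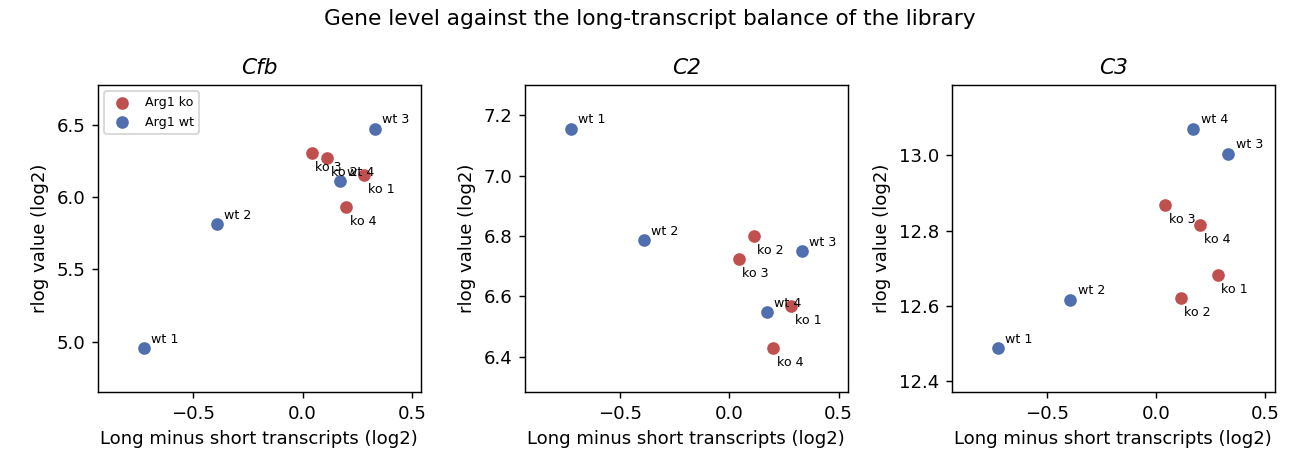
Level (rlog, log2) of Cfb, C2 and C3 in each of the 8 libraries against the balance of long and short transcripts in that library (median deviation of transcripts of at least 5000 bases minus that of transcripts of at most 1500 bases, log2). Wild type 1, at -0.73, has the lowest Cfb and C3 and the highest C2.

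C3 (ENSMUSG00000024164, chromosome 17, 57203970 to 57228136, minus strand), is the gene of the protein on which all routes meet. Its level was 12.68, 12.62, 12.87 and 12.82 in ko 1 to 4, against 12.49, 12.62, 13.00 and 13.07 in wild type 1 to 4. Its ko values lay between the lower and the upper pair of wild-type libraries. The difference was -0.05 with a standard error of 0.14 (limma adjusted p = 0.892), and the 95% interval of -0.37 to 0.27 corresponds to a ratio of ko to wild type of 0.775 to 1.21. The sign rested on the scaling and the libraries: quantile normalisation gave 0.02, leaving out wild type 4 gave 0.04, leaving out the library labelled wild type 3 gave 0.02, and leaving out wild type 1 and 2 together gave -0.29.

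Promoter sequences (RefSeq, GRCm38.p6, 250 bases before to 50 after the annotated start) were found for 4 of the 9 genes: C3, Cd55, C1ra and C1s1. They were searched on both strands for 7 motifs: C/EBP (TTGCNNAA), STAT (TTCNNNGAA), NF-kB, the interferon-stimulated element, AP-1 (TGANTCA), cAMP response (TGACGTCA) and the TATA box (TATAAA). The C3 promoter is shown because C3 is a classical acute phase gene. Its window holds 2 matches, as does that of C1ra, which is not shown. Since the first 250 bases lie before the annotated start, the C/EBP match of C3 stands before that start and its TATA match after it. Both C1ra matches also stand after the start. Capitals mark a C/EBP match at bases 206 to 213 and a TATA match at bases 265 to 270 of the window, chr17:57228087-57228386, minus strand.
C3: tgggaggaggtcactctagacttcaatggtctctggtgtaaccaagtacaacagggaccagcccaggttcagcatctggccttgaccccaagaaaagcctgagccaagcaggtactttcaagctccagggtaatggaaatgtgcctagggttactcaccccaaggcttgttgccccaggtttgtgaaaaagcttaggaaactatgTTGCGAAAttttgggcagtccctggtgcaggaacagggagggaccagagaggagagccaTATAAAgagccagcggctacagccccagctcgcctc
C/EBP letters were found in 3 of the 4 promoters (C3, C1ra and 1 of the 2 annotated starts of C1s1), against 10.8% of 27025 promoters of the same length, and TATA letters in 14.2% of them. STAT letters stood in 1 promoter, that of C1ra, against 8.47% of all. NF-kB, interferon-stimulated, AP-1 and cAMP response letters had no match in these promoters, against 1.62% (NF-kB), 3.49% (interferon-stimulated), 7.93% (AP-1) and 1.88% (cAMP response) of all promoters. A match is a description of letters and not evidence of binding.

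Serping1 (ENSMUSG00000023224, chromosome 2, 84765387 to 84775444, minus strand) encodes C1 inhibitor, the serpin that shuts down C1r and C1s. Its level was 11.49, 11.60, 11.55 and 11.53 in ko 1 to 4, against 11.59, 11.53, 11.52 and 11.70 in wild type 1 to 4. The groups overlapped, and the difference was -0.04 with a standard error of 0.08 (95% interval -0.23 to 0.14, limma adjusted p = 0.823).

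Cd55 (ENSMUSG00000026399, chromosome 1, 130439027 to 130462744, minus strand) encodes decay-accelerating factor, a membrane protein that takes C3 convertases apart on host cells. Its level was 10.28, 10.19, 10.16 and 10.18 in ko 1 to 4, against 10.38, 10.46, 10.36 and 10.46 in wild type 1 to 4. All 4 ko values lay below all 4 wild-type values, as they did in 1.67% of all tested genes. Cd55 was the 1 gene of the 8 tested whose groups did not overlap, against 4.03% of all tested genes in either direction. The means were 10.20 ± 0.05 (SD, n = 4) in ko and 10.41 ± 0.05 (SD, n = 4) in wild type. The difference of -0.21 had a standard error of 0.08 and a 95% interval of -0.39 to -0.03, a ratio of 0.763 to 0.979. It did not pass over all genes (limma unadjusted p = 0.0265, adjusted p = 0.522). Permuting the genotype over all 70 assignments (exact, two-sided) gave p = 0.0286, the smallest value this design allows. Every gene whose groups do not overlap gets this value, so it adds nothing to the separation itself. Leaving out each library in turn gave differences between -0.24 and -0.19. The Cd55 promoter, shown because Cd55 is the tested gene with separate groups, holds none of the 7 motifs and so has no capitals (chr1:130462695-130462994, minus strand).
Cd55: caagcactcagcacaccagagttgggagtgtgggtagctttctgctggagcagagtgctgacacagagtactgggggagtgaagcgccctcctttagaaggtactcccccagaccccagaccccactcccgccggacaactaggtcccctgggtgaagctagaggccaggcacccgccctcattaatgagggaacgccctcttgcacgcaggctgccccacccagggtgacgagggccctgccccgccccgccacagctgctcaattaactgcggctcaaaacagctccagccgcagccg
Of the 50-base windows of Cd55, 13.3% also occur in its paralog Cd55b (mean level 0.17).

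Cfi (ENSMUSG00000058952, chromosome 3, 129835884 to 129875332, plus strand) encodes factor I, the protease that inactivates C3b and C4b. It was barely present: 0.69, 0.68, 0.67 and 0.66 in ko 1 to 4, against 0.52, 0.58, 0.51 and 0.51 in wild type 1 to 4. Its mean of 0.60 was under the minimum for testing, so it is the 1 gene of the 9 without a test in the comparison above. All ko values lay above all wild-type values, as in 1.73% of the 28605 genes that were not constant. With no filter on low values the difference of 0.14 did not pass (limma adjusted p = 0.656, unadjusted p = 0.0035). The exact permutation test gave p = 0.0286, again the smallest possible and the value that every gene with separate groups gets. At this level rlog reflects few reads pulled toward a common value, so the difference cannot be read as a fold change.

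Levels can be set side by side between genes only per length. With log2 of the longest transcript in kilobases subtracted, Serping1 was highest, at 10.72 ± 0.05 (SD, n = 4) in ko and 10.76 ± 0.08 (SD, n = 4) in wild type. C3 followed with 10.39 ± 0.12 (SD, n = 4) in ko and 10.43 ± 0.29 (SD, n = 4) in wild type, and lay under Serping1 in 8 of 8 libraries. C1s1 came next (9.49 in ko, 9.49 in wild type), then Cd55 (8.56 in ko, 8.77 in wild type) and C4b (8.53 in ko, 8.54 in wild type). The order of Cd55 and C4b rested on the transcript chosen: Cd55 was higher in 3 of 4 ko and 4 of 4 wild-type libraries with its longest transcript of 3133 bases, and in 8 of 8 libraries with its longest protein-coding transcript of 2533 bases (8.86 in ko, 9.07 in wild type), an alternative chosen after seeing the data. C1ra (7.73 in ko, 7.76 in wild type) was more than 1 unit below its partner C1s1. C2 (5.23 in ko, 5.41 in wild type), Cfb (4.70 in ko, 4.37 in wild type) and Cfi (-0.38 in ko, -0.53 in wild type) closed the order, which held in 8 of 8 libraries for every other neighbouring pair. For C2 and Cfb the whole transcript lengths were used here. Gm20547 shares 42.8% of the exon bases of C2 and 79.5% of those of Cfb. If reads in those bases were not counted, both scaled levels are too low, that of Cfb by more. The order of C2 and Cfb may then not hold. For C1ra the windows shared with C1rb apply here too.

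**Figure D4:**
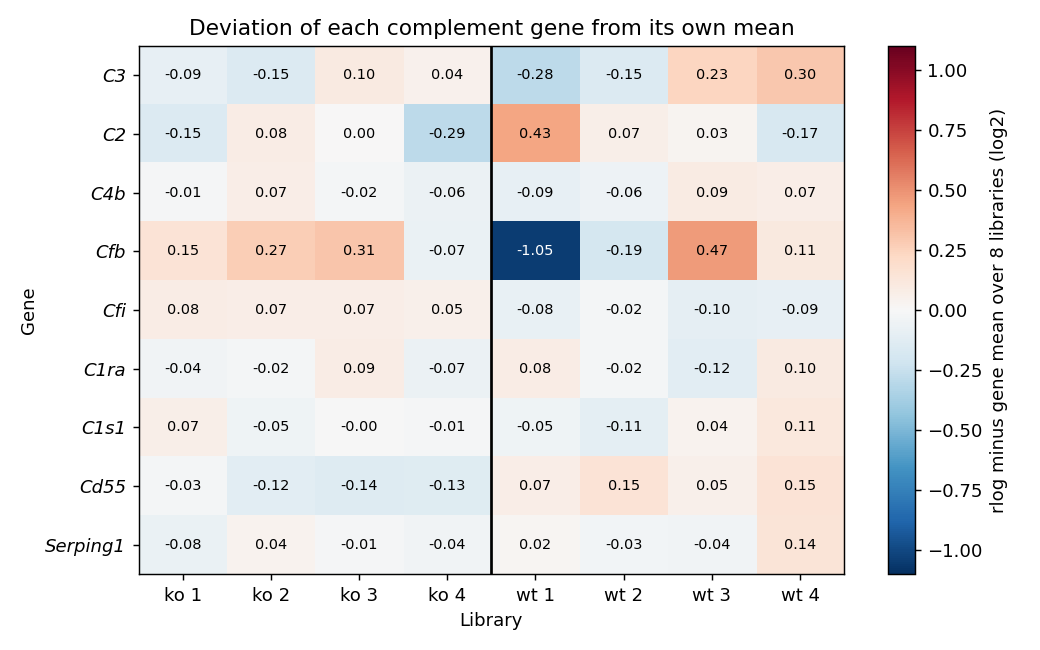
Deviation of each complement gene from its own mean over the 8 libraries (rlog, log2), ko libraries to the left of the line and wild-type libraries to its right. The darkest cell is Cfb in wild type 1 (-1.05), while C4b runs from -0.09 to 0.09.

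Most of the variation lay among the wild-type libraries. The SD was larger in wild type than in ko for 7 of the 8 tested genes, as for 90.9% of all tested genes, with Cd55 the exception. The 9 genes did not vary as a block. Over the 8 libraries, C3 ran with C1s1 (Pearson r = 0.72, Spearman rho = 0.79) and C4b with Cfb (r = 0.74, rho = 0.81), while C3 and C2 ran against each other (r = -0.61, rho = -0.69). Without wild type 1 these r were 0.72 for C3 with C1s1, 0.75 for C4b with Cfb and -0.31 for C3 with C2. The neighbours C1ra and C1s1 showed little relation (r = 0.10, rho = 0.07), and C2 and Cfb had r = -0.62, which turned to 0.35 without wild type 1. C1ra ran with Serping1 (r = 0.67, rho = 0.76). The r of largest size was that of Cfi with Cd55 (r = -0.80, rho = -0.57), which turned to 0.58 with each group centred on its own mean. The pairs given were chosen from all pairs of the 9 genes. These coefficients describe 8 libraries that share scaling and genotype, and they have no test.

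Among 14441 other named genes, those most like each member by Pearson r over the 8 libraries were Dnajc6 (0.98) and Sgip1 (0.97) for C3, Ptp4a3 (0.97) and Ogdhl (0.96) for C2, and Zbtb25 (0.96) and Tnc (0.96) for C4b. For Cfb they were the laminin chain Lama3 (0.98) and Eml6 (0.98), for C1ra Pkp3 (0.95) and Fbxo22 (0.94), and for C1s1 Rab36 (0.98) and Snap29 (0.97). Serping1 was most like Fbxl14 (0.985) and Borcs7 (0.97), Cd55 most like Mpzl1 (0.96) and Tmem147os (0.96), and Cfi most like Polrmt (0.95) and Slc8a2 (0.93). Such values are the best of a large search over few libraries. With each group centred on its own mean, r was lower for the 2 genes whose groups did not overlap. It was 0.85 (Mpzl1) and 0.80 (Tmem147os) for Cd55, and 0.51 (Polrmt) and 0.69 (Slc8a2) for Cfi. For the genes most like the other members it was 0.95 to 0.99.

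The rest of the pathway was read from a list of 48 further complement genes, of which 36 were tested. None passed (limma, 0 of 36), 5 had an unadjusted p under 0.05 (13.9%, against 9.1% of all tested genes), and the median difference was -0.03 with 17 positive and 19 negative. Without the library labelled wild type 3, a single one passed, Cd59a. Listed at 0 in all libraries were 6 of the 48, and they include the mannose-binding lectins Mbl1 and Mbl2 and the terminal components C8a and C8b.

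Among recognition molecules and their proteases, 0 of 8 tested genes passed, with 3 differences above 0 and 5 below. C1qa, a chain of the C1q molecule that binds antibody, had 10.89, 10.92, 10.98 and 10.79 in ko 1 to 4, against 11.61, 11.12, 10.81 and 10.67 in wild type 1 to 4. The difference was -0.16, and 0.03 without wild type 1. Fcna, ficolin A, differed by -0.38, and C1rl, a C1r-like protease, by 0.21 with all ko values above all wild-type values (2.36% of tested genes). Macrophage and monocyte markers mark the main source of C1q. They differed by more than 0 in 8 of 10, against 51.2% of all tested genes. Their mean deviation was 0.06 to 0.16 in ko and -0.43 to 0.15 in wild type, and their part in these values was not tested.

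Of C4a, Cfd and Cfp none passed. Cfd, the protease factor D that cuts factor B, had 12.58, 12.69, 12.67 and 12.44 in ko 1 to 4, against 13.19, 12.55, 12.80 and 11.80 in wild type 1 to 4. The ko values lay inside a wild-type range of more than 1 unit, and the difference was 0.0080, -0.02 with library medians aligned and -0.25 without wild type 4. Cfp, properdin, which stabilises the alternative convertase, differed by -0.11 (0.07 without wild type 1), and C4a by 0.05. Of the terminal components, 0 of 4 tested genes passed, and C7 (0.21) and C8g (0.14) had the smallest p. Both moved with the wild-type libraries: leaving out wild type 1 gave 0.02 for C7 and 0.26 for C8g, and leaving out wild type 2 gave 0.07 for C8g.

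Of 6 tested soluble regulators 0 passed, 1 difference was above 0 and 5 were below, and 3 (Clu, Cpn1 and C4bp) had an unadjusted p under 0.05, against 9.1% of all tested genes. No difference between roles was tested. Clu, clusterin, a secreted chaperone that also blocks the terminal complex, had 9.39, 9.41, 9.55 and 9.49 in ko 1 to 4, against 9.87, 9.64, 10.14 and 9.66 in wild type 1 to 4. Its groups did not overlap, and the difference was -0.37 (limma adjusted p = 0.522, 1.67% of tested genes lying below in this way). Cpn1, a carboxypeptidase that trims anaphylatoxins, differed by 0.68, and C4bp, the C4b-binding protein, by -0.33, both with overlapping groups.

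Cd55 can be set beside the other inhibitors on host membranes, of which 0 of 6 tested genes passed, with 3 differences above 0 and 3 below and 1 unadjusted p under 0.05. Cr1l, the mouse convertase inhibitor known as Crry, had 10.77, 10.80, 10.72 and 10.61 in ko 1 to 4, against 10.99, 10.86, 10.79 and 11.17 in wild type 1 to 4, a difference of -0.23. Cd59a, which blocks the terminal pore, had 8.40, 8.36, 8.33 and 8.55 in ko 1 to 4, against 8.88, 9.02, 8.45 and 8.70 in wild type 1 to 4. Its difference was -0.36 (limma adjusted p = 0.522), and -0.46 when the library labelled wild type 3 was left out (limma adjusted p = 0.0479; range over the alternatives 0.0479 to 0.819). That library had the lowest Cd59a of the wild type, so leaving it out enlarges the difference by construction. Epithelial markers, beside which Cd55 can be read, differed by more than 0 in 4 of 10, with a mean deviation of -0.07 to 0.10 in ko and -0.17 to 0.10 in wild type. Neutrophil markers did so in 1 of 6 tested and ranged from -0.43 to -0.14 in ko and from -0.33 to 0.93 in wild type. Fibroblast markers did so in 8 of 9, at 0.11 to 0.20 in ko and -0.31 to 0.06 in wild type. Endothelial markers did so in 3 of 7 and smooth muscle markers in 3 of 6. T and NK cell markers did so in 5 of 8 and B and plasma cell markers in 1 of 6. Of all tested genes, 51.2% differed by more than 0. The part of these cell types in the Cd55 difference was not tested.

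Of 9 tested receptors 0 passed, with 5 differences above 0 and 4 below and a median of 0.23, which was 0.02 without wild type 4. C5ar2, a receptor for C5a, differed by 0.29, and by 0.16 without wild type 4. Vsig4, a macrophage receptor for C3 fragments, differed by -0.35, and C1qbp, a mitochondrial protein that also binds C1q, by -0.11. Of 11 signals known to induce complement genes, 9 were tested and 0 passed, with 3 above 0 and 6 below. Cebpd encodes C/EBP delta, which binds C/EBP sites and takes part in the acute phase response. It had 9.80, 9.89, 9.92 and 9.88 in ko 1 to 4, against 10.26, 10.59, 10.16 and 10.60 in wild type 1 to 4. The groups did not overlap, and the difference was -0.53 (limma adjusted p = 0.522). The library labelled wild type 3 had the lowest Cebpd of the wild type, so leaving it out enlarges the difference by construction. The fit without it gave a limma adjusted p of 0.0295, in a range of 0.0295 to 0.819 over the alternatives. Socs3, a feedback inhibitor of Stat3 signalling, differed by -0.30, also without overlap (1.67% of all tested genes lay below in this way), and Stat3 itself by -0.10. The genes with C/EBP letters in their promoters differed by -0.05 (C3), -0.02 (C1ra) and 0.0034 (C1s1). The part of Cebpd in these values was not tested.

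**Figure D5:**
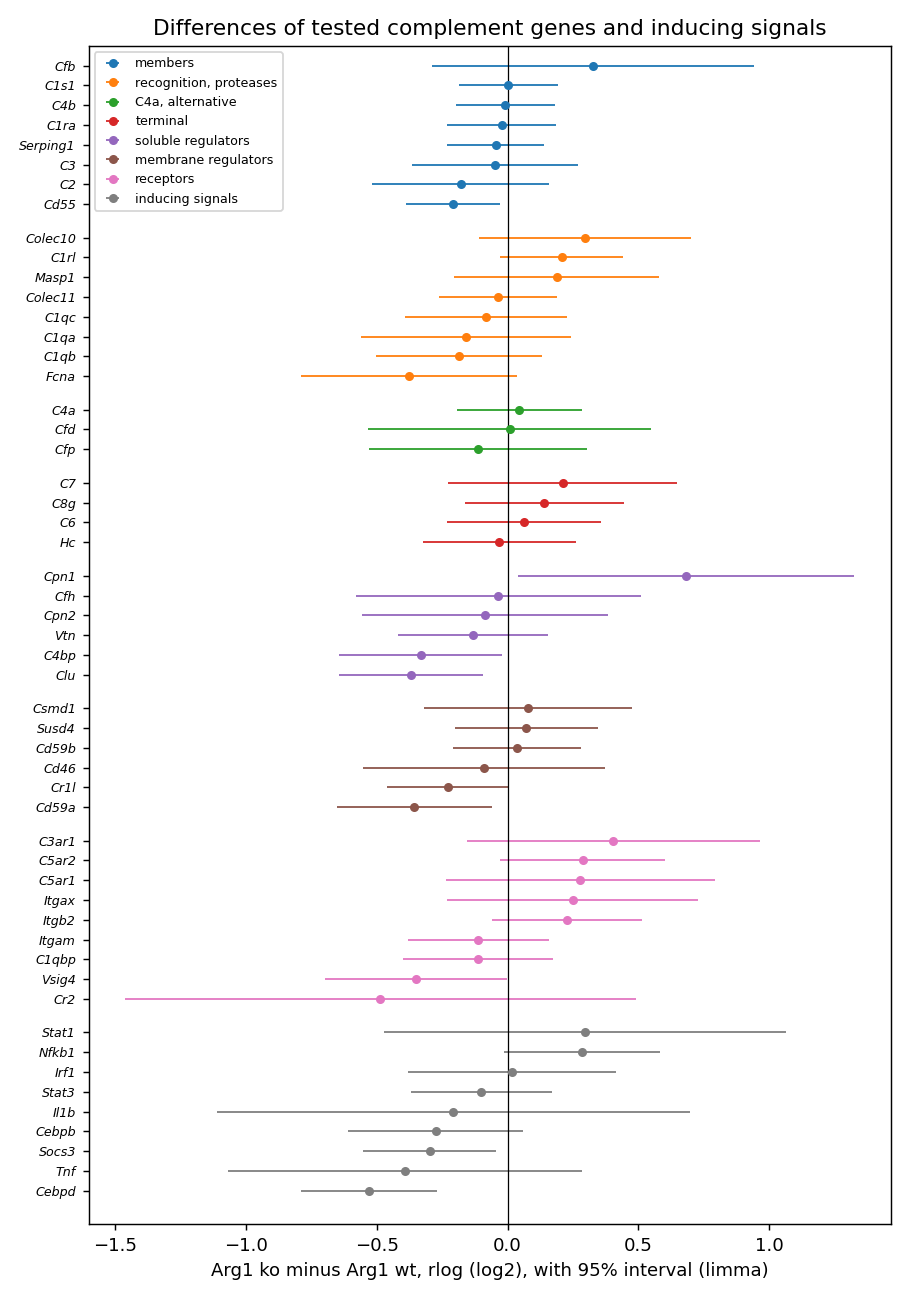
Difference Arg1 ko minus Arg1 wt (rlog, log2) with its 95% interval from limma for the 8 tested members, 36 further complement genes and 9 inducing signals, grouped by role. No gene shown passed an adjusted p of 0.05; Cd55, Clu, C4bp, Cd59a, Vsig4, Cebpd and Socs3 have intervals below 0 and Cpn1 one above it.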

How the data were processed

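Messenger RNA was sequenced in 8 colon samples, 4 Arg1 ko and 4 Arg1 wt, each from a separate mouse. The deposited table holds regularised log2 values (rlog), which are counts scaled for library size on a log2 scale and shrunken toward each gene's mean. The submitters' processing notes name DESeq2 1.16.1, featureCounts, Subread 1.5.3, STAR 2.5.2b, BWA 0.7.14-r1136 and the build GRCm38, with no role or order. The sources used here state no annotation release, strand setting or treatment of shared reads. Libraries were stranded, per the labels' protocols. All 8 columns were matched through the labels, with replicate numbers in order of deposit.

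Symbols, coordinates, overlaps and transcripts came from GENCODE vM21 (53274 of 53465 IDs matched), promoters from RefSeq. A gene was tested if it varied and its mean level reached 3 (16380 genes). The test was limma 3.58.1 in R 4.3.3 with a mean-dependent prior, two-sided, Benjamini-Hochberg adjusted over all tested genes at 0.05, after a check on simulated data. Single genes had an exact permutation test (SciPy 1.17.1). C4b and C4a were aligned with Biopython 1.88. Alternatives were other filters, scalings and priors, an adjusted p of 0.1 and leaving out each library; leaving out wild type 1 and 2 together, and the protein-coding transcript length, were added after seeing the data. Named are the 9 genes, Arg1, the 2 smallest p and the highest mean of each role list, and the 2 genes most like each member. Others named are examples chosen after their values were seen. Members and lists were chosen with earlier results of these data known.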

Additional observations from a re-analysis of the deposited data

Results flagged for a closer look

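Among 29 genes named above, each group of 4 was searched for a library far from the other 3, and 3 of 58 groups held one, where about 1 in 20 would by chance. Arg1 was 5.02 in the library labelled wild type 3, against 5.57 to 5.59 in the other wild-type libraries. Cfi was 0.58 in wild type 2, against 0.51 to 0.52 in the others. Socs3 was 9.26 in wild type 2, against 8.92 to 8.96 in the others.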

How the results depend on the processing

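No paired analysis was possible because the labels give the genotypes no shared replicate numbers. The count of the 8 tested members past the threshold was 0 under every alternative run, an adjusted p of 0.1 included. The count over all genes ranged from 0 to 1005 when each library was left out, and that of the other 36 complement genes from 0 to 1; the higher values came without the library labelled wild type 3. The median difference of the members ranged from -0.05 to 0.01 when each library was left out, and that of the other complement genes from -0.03 to 0.04. Signs turned for these genes. With library medians aligned, C1s1 was -0.026 and Cfd -0.022, and after quantile normalisation C3 was 0.021. Without wild type 1 and 2 together, C1qa was 0.15, C1qbp 0.067, C1s1 -0.074, C4a -0.033, C7 -0.10, Cfb -0.13 and Cfp 0.20. Leaving out each library gave ranges of -0.29 to 0.027 for C1qa, -0.19 to 0.0030 for C1qbp, -0.066 to 0.0064 for C1ra, -0.033 to 0.042 for C1s1, -0.15 to 0.044 for C3, -0.019 to 0.11 for C4a, -0.039 to 0.021 for C4b, -0.25 to 0.21 for Cfd, -0.22 to 0.072 for Cfp and -0.19 to 0.0092 for Stat3. The cause was not tested. Depth is unknown, and a batch cannot be told apart from genotype, since the sample numbers form separate runs.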
